A study of Mus musculus with 45 samples.

Results

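The data describe 49 interferon-induced genes of the mouse, taken from the 52636 genes in each of the 2 expression tables of a study of the receptor LGR5 in the developing intestine. The genes were chosen by name as well-known targets of interferon signalling, and every one of them was found in both tables under its symbol. Bulk RNA was sequenced from 15 samples of sorted intestinal cells and from 30 samples of 5 organoid cultures grown from fetal gut, 45 libraries in all. The members fall into 6 roles: 5 transcription factors, 6 nucleic acid sensors, 5 oligoadenylate synthetases, 18 antiviral effectors, 7 interferon-inducible GTPases and 8 genes of class I antigen presentation.

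The sorted cells came from mice in which a cassette of diphtheria toxin receptor and eGFP is knocked into the Lgr5 gene, and eGFP-positive cells were collected by flow cytometry. At E16.5 there were 2 pools of heterozygous (HE) embryos, of 7 embryos from litter 85 and 8 embryos from litter 97. Beside them were 2 pools of homozygous knockout (KO) embryos, of 2 embryos from litter 85 and 6 embryos from litter 97. At E18.5 there were 2 HE embryos, each a library of its own. Adult HE mice of 2 months gave a duodenum and an ileum library each, from 2 mice, called mouse 1 and mouse 2. A second adult line carries an inducible Cre in Lgr5, and ileum cells of its mice, also of 2 months, were sorted for eGFP and Tomato 48 hours after 2 mg of tamoxifen. In that line 2 libraries are labelled HE and 3 are labelled cKO, for a conditional knockout in which exon 16 of the other Lgr5 allele is deleted.

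The organoids were grown from E17.5 embryos of the knock-in line and used at passage 4. There were 3 wild-type (WT) cultures, numbered 10, 5 and 30, and 2 KO cultures, numbered 7 and 2. Each culture was kept in Rspo1, Rspo2 or Rspo3, at 100 or at 5 ng/ml, which gives 6 libraries per culture. Depth ran from 1.28 to 9.98 M gene reads in the sorted libraries and from 18.1 to 33.1 M in the organoids. At E16.5 the depths were 1.28 and 1.98 M for HE and 2.61 and 2.52 M for KO, and at E18.5 they were 4.34 and 4.57 M. Adult duodenum had 5.61 and 4.46 M, ileum 4.11 and 4.37 M, and the Cre line 9.06 and 3.08 M for labelled HE and 8.12, 5.72 and 9.98 M for labelled cKO. A single read was worth 0.784 CPM in the shallowest library and 0.1 CPM in the deepest sorted library, so low values carry large counting error.

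Interferons are secreted proteins that bind receptors on the cell surface and switch on a shared group of defence genes. Type I and type III interferons act through the kinases JAK1 and TYK2 and a complex with STAT2 and IRF9, which binds the interferon-stimulated response element (ISRE). Type II interferon acts through JAK1 and JAK2 on genes with a gamma-activated site (GAS) and induces IRF1. Cells also reach these genes through sensors of foreign or misplaced nucleic acid, which signal through MAVS or STING (Tmem173) to IRF3 and IRF7. In the gut, epithelial cells carry receptors for all of these interferons, and many of the genes have a basal level without infection.

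Lgr5 itself was read in every sample before any other gene. At E16.5 it was at 104 and 125 CPM in HE and 64.8 and 51.7 CPM in KO, so both KO pools were below both HE pools. The difference passed the test (log2 -0.97, SE 0.18, limma adjusted p = 0.079). The labels call the homozygous KO pools null. The knock-in allele is still transcribed in part, so Lgr5 RNA in KO does not stand for receptor protein, which was not measured here. At E18.5 Lgr5 was at 306 and 292 CPM, in adult duodenum at 346 and 308 CPM and in adult ileum at 339 and 356 CPM. In the Cre line the libraries labelled HE were at 52.8 and 87.6 CPM and those labelled cKO at 89.2, 109 and 90.7 CPM. Every library labelled cKO was thus above both labelled HE, although the difference did not pass the test (log2 0.49, adjusted p = 0.86). A whole-gene value includes exons outside the deleted one, so it does not check the deletion.

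Other labels of the Cre line are open to doubt. A supplementary table holds the same libraries under other genotypes in part. When its columns were matched to the libraries by their values, 859 of 859 gene values were equal for each of 5 libraries. The genotype differed for 2 of the 5: the library labelled HE 1 stands there as cKO, and the library labelled cKO 2 stands there as HE. Sex markers split the line differently again. Xist was at 1.7 and 0.65 CPM in the libraries labelled HE and at 1298, 1162 and 1551 CPM in those labelled cKO, so the mice labelled HE read as male and those labelled cKO as female. All 5 sex markers were called between the 2 labels, and sex and labelled genotype cannot be told apart in this line. In the organoids the KO cultures read as male and the WT cultures as female in every library, so sex and genotype cannot be told apart there either. At E16.5 Xist was at 1.55 CPM in KO 1 and at 1104 and 639 CPM in HE, with 1224 CPM in KO 2. The E18.5 embryos differed in the same way, with Xist at 11.3 and 5175 CPM.

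In the organoids, Lgr5 was higher at the high dose in all pairs of libraries but 1. In WT with Rspo1 it was at 116, 192 and 94.2 CPM at 100 ng/ml and 5.4, 5.65 and 3.45 CPM at 5 ng/ml, in the order of cultures 10, 5 and 30. With Rspo2 the WT values were 379, 247 and 458 CPM against 15.9, 28.7 and 6.1 CPM, and with Rspo3 they were 50.7, 48.9 and 39.4 CPM against 0.35, 0.6 and 0.45 CPM. In every WT culture the high dose thus gave more Lgr5 RNA with each ligand. KO cultures 7 and 2 had 57.9 and 91.7 CPM against 1.1 and 7.4 CPM with Rspo1 and 35.2 and 41.3 CPM against 0.2 and 0.25 CPM with Rspo3. With Rspo2 they had 104 and 75 CPM at 100 ng/ml and 20.6 and 90.5 CPM at 5 ng/ml. The KO 2 library labelled Rspo2 at 5 ng/ml thus had more Lgr5 than the 100 ng/ml library of that culture, and the same held for the stem cell genes Olfm4 and Ascl2. Both KO cultures had more Lgr5 with Rspo2 than with Rspo1 at 5 ng/ml. Whether the order in KO 2 lies in the cells or in the label was not tested. Directions for Rspo2 in KO that use the 5 ng/ml libraries rest in part on that library.

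Promoters were taken from RefSeq transcript starts on mouse build GRCm38.p6, from 250 bases before to 50 bases after the start. A promoter was found for 36 of the 49 members. The ISRE core GAAANNGAA was present in 20 of the 36, against 9.76% of all 27025 genes with a promoter. The GAS core TTCNNNGAA was present in 11 of the 36, against 9.55% of all genes. Both motifs were found in 5 members (Bst2, Eif2ak2, Gbp7, Igtp and Oas1a), and 10 members had neither. The ISRE core was in 5 of 5 GTPase genes and 4 of 4 sensor genes, but in 1 of 6 genes of class I antigen presentation and 1 of 5 transcription factor genes. A core this short also occurs by chance, and binding was not measured.

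Isg15 lies on the minus strand, and its promoter is chr4:156200769-156201068 on GRCm38.p6 (RefSeq). Capitals mark the motif cores in each promoter printed here, and each sequence is read along the strand of its gene. Isg15 has 3 overlapping ISRE cores and no GAS core.

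Isg15: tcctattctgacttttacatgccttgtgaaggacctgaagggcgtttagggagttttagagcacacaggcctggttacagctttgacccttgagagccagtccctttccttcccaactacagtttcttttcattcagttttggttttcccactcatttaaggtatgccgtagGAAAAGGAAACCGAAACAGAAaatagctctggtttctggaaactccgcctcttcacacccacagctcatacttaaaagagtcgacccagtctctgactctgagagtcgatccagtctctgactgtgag

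Ifit1 lies on the plus strand, and its promoter is chr19:34640639-34640938 (RefSeq, GRCm38.p6). Its 3 ISRE cores read on the opposite strand, and capitals mark them.

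Ifit1: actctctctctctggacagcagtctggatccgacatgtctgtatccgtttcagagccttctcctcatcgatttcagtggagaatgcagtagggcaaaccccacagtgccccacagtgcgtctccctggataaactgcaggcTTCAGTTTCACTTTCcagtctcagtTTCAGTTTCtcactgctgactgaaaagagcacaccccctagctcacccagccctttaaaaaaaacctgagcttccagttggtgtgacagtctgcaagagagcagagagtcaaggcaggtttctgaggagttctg

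Oas1a lies on the minus strand, and its promoter is chr5:120907476-120907775 (RefSeq, GRCm38.p6). Capitals mark an ISRE stretch near the start and a GAS core further up.

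Oas1a: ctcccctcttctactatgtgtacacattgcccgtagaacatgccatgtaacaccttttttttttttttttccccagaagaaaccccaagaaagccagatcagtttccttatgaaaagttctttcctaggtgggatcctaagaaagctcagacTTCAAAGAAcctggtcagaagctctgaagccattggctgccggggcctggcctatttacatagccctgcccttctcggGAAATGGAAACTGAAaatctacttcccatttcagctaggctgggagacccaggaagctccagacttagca

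Igtp lies on the plus strand, and its promoter is chr11:58199306-58199605 (RefSeq, GRCm38.p6). Capitals mark a GAS core and an ISRE core that lie side by side.

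Igtp: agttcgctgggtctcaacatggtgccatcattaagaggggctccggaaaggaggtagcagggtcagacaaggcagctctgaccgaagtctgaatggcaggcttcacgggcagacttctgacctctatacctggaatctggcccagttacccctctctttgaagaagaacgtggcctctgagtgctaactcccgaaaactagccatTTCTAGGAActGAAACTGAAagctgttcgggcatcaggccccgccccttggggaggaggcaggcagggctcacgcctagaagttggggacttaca

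Irf1 lies on the plus strand, and its promoter is chr11:53769764-53770063 (RefSeq, GRCm38.p6). Capitals mark its GAS core, and no ISRE core was found.

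Irf1: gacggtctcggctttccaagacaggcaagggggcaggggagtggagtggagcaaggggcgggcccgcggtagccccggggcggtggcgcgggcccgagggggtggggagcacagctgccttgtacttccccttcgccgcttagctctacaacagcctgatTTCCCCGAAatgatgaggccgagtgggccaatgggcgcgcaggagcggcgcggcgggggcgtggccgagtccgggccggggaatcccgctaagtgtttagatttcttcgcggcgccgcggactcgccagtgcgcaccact

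B2m lies on the plus strand, and its promoter is chr2:122147437-122147736 (RefSeq, GRCm38.p6). Capitals mark its single ISRE core.

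B2m: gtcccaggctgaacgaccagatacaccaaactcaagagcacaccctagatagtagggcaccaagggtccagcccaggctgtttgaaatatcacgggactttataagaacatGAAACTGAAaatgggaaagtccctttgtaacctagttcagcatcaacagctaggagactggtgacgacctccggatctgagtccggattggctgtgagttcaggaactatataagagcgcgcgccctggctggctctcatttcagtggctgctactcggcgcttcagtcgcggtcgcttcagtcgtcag

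Many members are neighbours. In all, 22 of the 49 lie in 8 clusters within 300 kb, among them Tapbp, Psmb9, Tap1, Psmb8 and Tap2 on chromosome 17 and Ifit2, Ifit3 and Ifit1 on chromosome 19. Ifit3 and Oas1a have close copies in the genome (Ifit3b and the other Oas1 genes), and reads could be split between copies, so their values are uncertain.

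Summed over the 49 members, the level was 860 CPM and 727 CPM in the E16.5 HE pools and 678 CPM and 702 CPM in the E16.5 KO pools. It was 1073 CPM and 1014 CPM at E18.5, 2923 CPM and 5764 CPM in adult duodenum, and 3546 CPM and 2535 CPM in adult ileum. The Cre line gave 3794 CPM and 5667 CPM for labelled HE and 3715 CPM, 3513 CPM and 4215 CPM for labelled cKO. All adult libraries were therefore above all embryonic ones. Per kilobase of exon, B2m was the most abundant member in every group, at 123 CPM per kb at E16.5 HE (43.6% of the member sum) and 339 CPM per kb at E18.5 (65.7%). After B2m came Trim25, at 30.4 CPM per kb, and Irf1, at 25.3 CPM per kb, at E16.5 HE. In adult duodenum B2m at 807 CPM per kb was followed by Oas1a at 72.3 and Oas2 at 62.4 CPM per kb. In adult ileum B2m at 962 CPM per kb was followed by Igtp at 46.3 and Irf1 at 36.3 CPM per kb.

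A pair of adult libraries stood apart from their partners. The duodenum of mouse 2 was above the duodenum of mouse 1 for 48 of the 49 members, with a median log2 difference of 1.17 against -0.06 over all genes detected. The library labelled HE 2 in the Cre line was above labelled HE 1 for 41 of the 49, with a median of 0.91 against -0.05. In the ileum the order of the mice was the other way, and mouse 2 was below mouse 1 for 43 of the 49. These libraries are named wherever they carry a result. Bulk RNA cannot separate fewer cells of a type from less RNA per cell, and those cannot be told apart in any comparison here. Log2 differences are on log2(CPM + 1), which understates differences of genes near 0.

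The adult and E18.5 HE cells were compared to ask how the genes differ between the fetal and the mature Lgr5-positive population. Between these ages the gut is first colonised by microbes, and the crypts and their Paneth cells form. The adult arm holds both regions, so age is compared over 4 libraries from 2 mice against 2 embryos. Of the 49 members, 36 (73.5%) were called, all of them higher in the adult, whereas 19.0% of all genes tested were called. The member median was 2.15 on the log2 scale against -0.04 over all genes. For 42 members every adult library was above both E18.5 libraries, as for 18.9% of all genes tested. The count rests on both embryos: it was 13 without E18.5 embryo 1 and 12 without embryo 2, against 5.70% and 5.42% of all genes. It was 33 to 39 when a single adult library was left out, against 17.0% to 21.2%. With duodenum and ileum averaged within each mouse, so that a mouse counts once, 44 members were called, against 25.6% of all genes. They were the 36 and Cmpk2, Gbp2, Ifi35, Ifit2, Iigp1, Rsad2, Samd9l and Trim25. With the duodenum alone 43 members were called (26.8% of all genes) and with the ileum alone 43 (22.1%), of which 42 were higher and Ifit1 lower.

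The oligoadenylate synthetases, which make the activator of the nuclease RNase L or related proteins, had some of the largest differences. Oas2 was at 0.25 and 0.45 CPM at E18.5, 151 and 404 CPM in adult duodenum and 16.6 and 20.7 CPM in adult ileum. Oas3 was at 0.5 and 0 CPM, 72.3 and 277 CPM and 34.8 and 20.4 CPM in the same order. Both genes were near 0 at E18.5 and highest in the duodenum of mouse 2, with no overlap between the ages. Oas2 was higher in the adult by 5.69 (SE 1.20, limma adjusted p = 0.019) and Oas3 by 5.68 (SE 0.89, adjusted p = 0.0059). Oasl2 was at 5.8 and 3.95 CPM, 123 and 309 CPM and 74 and 51.6 CPM, a difference of 4.26 (SE 0.62, adjusted p = 0.0045). Oas1a was at 9 and 9.65 CPM, 91.4 and 181 CPM and 65.2 and 36.9 CPM. Its level was above 0 in the fetus already, and the difference was 2.97 (SE 0.53, adjusted p = 0.0096). With Oasl1, all 5 genes of the role were called.

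Genes of class I antigen presentation are induced by interferon and set how visible a cell is to cytotoxic T cells. Nlrc5, the transcriptional activator of the class I genes, was at 0.5 and 0 CPM at E18.5, 32.5 and 79.5 CPM in duodenum and 101 and 48.6 CPM in ileum. It was at the edge of detection in the fetus and well detected in each adult library, with a difference of 5.63 (SE 0.44, limma adjusted p = 3.1e-04). The peptide transporter gene Tap1 was at 11.6 and 11 CPM, 48.6 and 86 CPM and 117 and 64.4 CPM. The immunoproteasome gene Psmb9 was at 7.4 and 9 CPM, 24 and 29.5 CPM and 50.2 and 28.7 CPM. Ages did not overlap for either gene, and the differences were 2.63 (SE 0.31, adjusted p = 0.0020) for Tap1 and 1.84 (SE 0.28, adjusted p = 0.0056) for Psmb9. B2m, the light chain of every class I molecule, was at 302 and 280.4 CPM, 589 and 799 CPM and 891 and 764 CPM. It was abundant at both ages, and its difference of 1.37 (SE 0.16, adjusted p = 0.0020) was smaller than that of Nlrc5 while more exact. In this role 7 of 8 genes were called, with Psmb8, Tap2 and Tapbp as the others, and Psmb10 was not.

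The interferon-inducible GTPases act on the vacuoles of intracellular microbes, and they are classical targets of type II interferon. Igtp was at 1.4 and 0.9 CPM at E18.5, 32.5 and 80 CPM in duodenum and 132 and 55.7 CPM in ileum, and Gbp6 was at 2.8 and 2.45 CPM, 32.2 and 55.9 CPM and 87.9 and 41.9 CPM. Both were low in the embryos and high in every adult library. Igtp was higher by 4.98 (SE 0.48, limma adjusted p = 7.8e-04) and Gbp6 by 3.84 (SE 0.36, adjusted p = 6.8e-04). Iigp1 was at 0.25 and 0.9 CPM, 0.9 and 1.35 CPM and 54.8 and 17.9 CPM. Only its ileum libraries stood clear of the fetal ones, and over the 4 adult libraries it was not called (2.43, SE 1.31, adjusted p = 0.25). Of the 7 GTPase genes, 5 were called, with Gbp3, Gbp7 and Irgm1 as the others. Gbp2 and Iigp1 were called only when the regions of a mouse were averaged or with the ileum alone.

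Among effectors and sensors, Ifi44 was at 0 and 0.45 CPM at E18.5, 26.8 and 101 CPM in duodenum and 55 and 19 CPM in ileum. Zbp1, a sensor of left-handed nucleic acid, was at 0.5 and 0.9 CPM, 25.9 and 89.8 CPM and 14.2 and 20 CPM. Both were close to 0 in the embryos, and the differences were 5.13 (SE 0.60, limma adjusted p = 0.0019) and 4.14 (SE 0.64, adjusted p = 0.0056). Isg15, a ubiquitin-like modifier, was at 0.25 and 0 CPM, 8.05 and 38.4 CPM and 2.95 and 1.65 CPM. Its adult values spread widely, and the difference of 2.81 (SE 0.96, adjusted p = 0.091) passed by little. Ifit1, which binds viral RNA lacking a proper cap, was at 11.1 and 9.65 CPM, 16.3 and 81.3 CPM and 4.15 and 5.75 CPM. The ileum was below and the duodenum above the fetal level, and Ifit1 was not called over both regions (0.39, adjusted p = 0.83). The RNA sensor Ddx58 (RIG-I) was at 22.6 and 18.4 CPM, 57.1 and 129.8 CPM and 37.8 and 33.7 CPM, a called difference of 1.40 (SE 0.49, adjusted p = 0.096). Of 18 effectors 11 were called, the others being Mx1, Mx2, Usp18, Isg20, Bst2, Rtp4, Xaf1, Parp9 and Parp14. Of 6 sensors 4 were called, with Dhx58 and Ifih1 as the others.

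Among the transcription factors, Irf7 was at 8.35 and 6.8 CPM at E18.5, 117 and 260.2 CPM in duodenum and 41.6 and 36.9 CPM in ileum. Stat2 was at 22 and 22 CPM, 58 and 165 CPM and 51.4 and 42.6 CPM, and Irf1 was at 71.1 and 71.9 CPM, 88.5 and 109.8 CPM and 163 and 126 CPM. Irf1 was already well expressed in the embryos, whereas Irf7 was low in them and spread most in the adult. All 3 were called, by 3.30 (SE 0.73, limma adjusted p = 0.022), 1.58 (SE 0.48, adjusted p = 0.065) and 0.73 (SE 0.22, adjusted p = 0.065). Irf9 was called too, and Irf8, best known from immune cells, was not (0.10). Irf8 was also detected in every organoid library, with means of 49.7 CPM in WT and 47.3 CPM in KO. The median difference was 1.60 over the 20 members with an ISRE core, from 0.39 to 5.68, and 1.59 over the 16 without it, from 0.10 to 4.26. Of these, 13 and 11 were called, against 19.0% of all genes. Between E18.5 and E16.5 the median was 0.05 with an ISRE core, with 6 called higher and 6 lower of 18 tested. It was 0.88 without the core, with 6 called higher and 1 lower of 15. In that comparison 49.6% of all genes were called. Whether the classes differ was not tested.

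**Figure D1:**
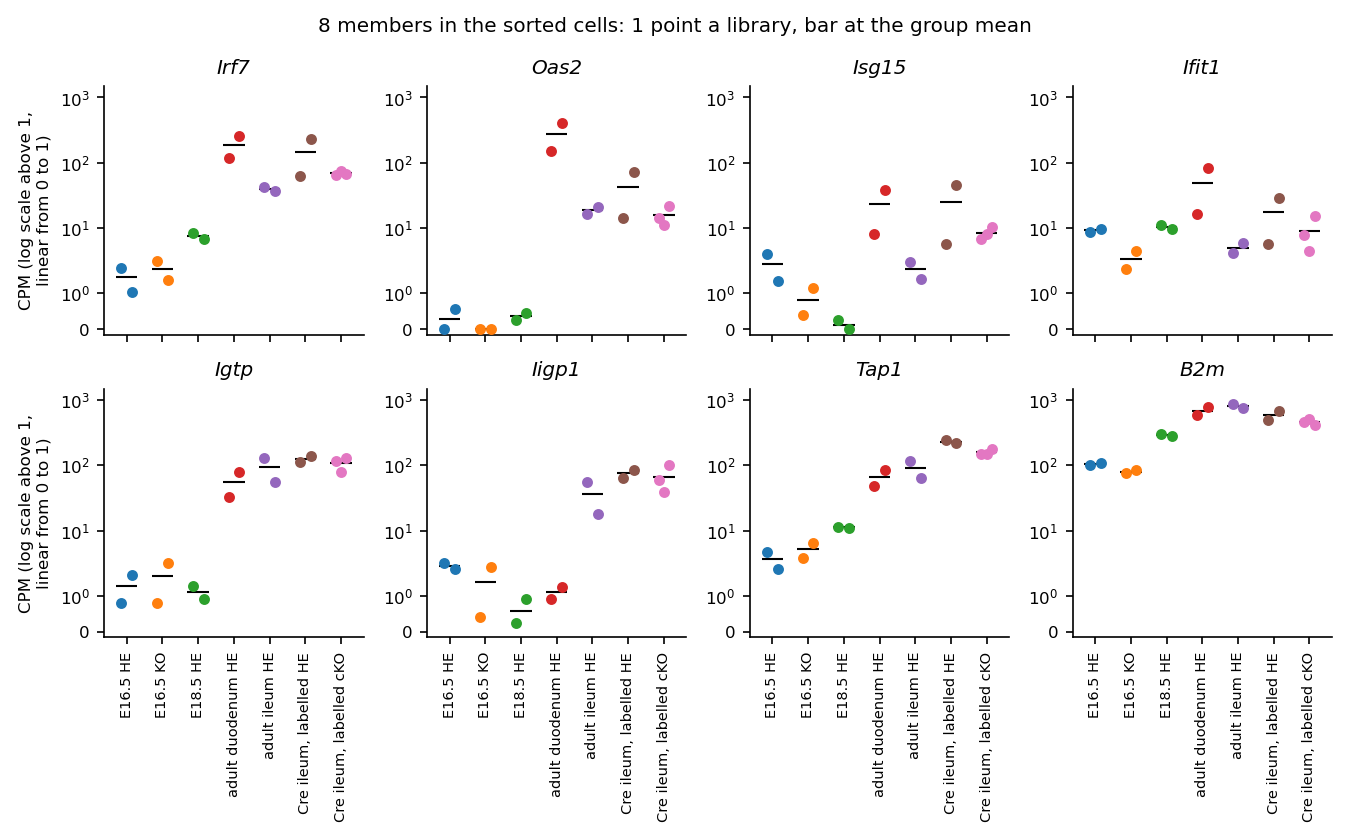
CPM of 8 members in each sorted library on a symmetric log axis, with 1 point per library and a bar at the group mean. Irf7, Oas2 and Isg15 are highest in the duodenum of mouse 2 or in labelled HE 2, and B2m is high in every library. Igtp is low before birth, and Iigp1 is low before birth and in adult duodenum.

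Genes upstream of the members were read too. None of the 6 receptor genes was called between adult and E18.5, and their values in every age are given with the embryonic comparison. Among the signal transducers and regulators, Tlr3, Tmem173 and Jak2 were higher in the adult. Tlr3, a sensor of double-stranded RNA, was at 4.85 and 6.4 CPM at E18.5, 42.9 and 55.7 CPM in duodenum and 51.4 and 46.1 CPM in ileum. It differed by 2.92 (SE 0.17, limma adjusted p = 9.1e-05). Of 41 other interferon-induced genes, 27 of the 40 tested were higher and 0 lower by limma, led by Tgtp2 and Tgtp1.

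Genes of other cell types also differed in this comparison. The 20 leukocyte genes summed to 81.0 and 96.3 CPM at E18.5, 2328 and 2141 CPM in duodenum and 1548 and 3217 CPM in ileum, with Lyz2 as the most abundant adult gene at 2197 CPM on average. Lyz2 and Ptprc were higher and Csf1r lower of 11 tested. Without Lyz2 and Lcp1 the leukocyte sums were 20.0 and 16.1 CPM at E18.5, 72.0 and 92.4 CPM in duodenum and 33.1 and 50.5 CPM in ileum. Paneth cell genes were higher in 6 of 6, and the genes of mesenchyme were lower in 8 of 10 tested, of red blood cells in 5 of 5 and of enterocytes in 5 of 7. Of the intraepithelial lymphocyte genes, Itgae and Cd7 were higher of 5 tested, and their list summed to at most 23.7 CPM. Their part in the result was not tested.

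The E18.5 and E16.5 HE cells were compared to ask when the members change before birth. In these days villi lengthen and Lgr5 becomes restricted to the intervillus epithelium. Pools of embryos stand on the E16.5 side and single embryos on the other, so pooling and age cannot be told apart. The comparison shares its E18.5 libraries with the adult comparison, so the results of both are not independent. Of 41 members tested, 24 were called, 16 higher and 8 lower at E18.5, and 49.6% of all genes tested were called. The member median was 0.63 against 0.23 over all genes. Without E18.5 embryo 1, and again without embryo 2, only 2 were called (Xaf1 and B2m). Calls over all genes fell as well, from 9138 to 780 and 768, which is 4.24% and 4.17%. Leaving out either E16.5 pool alone gave 27 members, against 54.2% and 52.5% of all genes.

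B2m was at 102 and 109.5 CPM in the E16.5 HE pools and 302 and 280.4 CPM at E18.5, and Tapbp, which loads peptide on class I molecules, was at 8.65 and 8.6 CPM and 42 and 44.7 CPM. Both genes had replicates close to each other and ages far apart. B2m was higher at E18.5 by 1.45 (SE 0.10, limma adjusted p = 3.7e-04) and Tapbp by 2.20 (SE 0.19, adjusted p = 5.7e-04). Tap1 was at 4.75 and 2.55 CPM and 11.6 and 11 CPM, a difference of 1.44 (SE 0.35, adjusted p = 0.017). Irf7 went from 2.4 and 1.05 CPM to 8.35 and 6.8 CPM, Oas1a from 3.95 and 2.55 CPM to 9 and 9.65 CPM and Ddx58 from 3.15 and 10.1 CPM to 22.6 and 18.4 CPM. Irf7 and Oas1a had 2 to 5 reads in each E16.5 HE library, and Ddx58 had 4 and 20. These 3 rose by 1.69, 1.30 and 1.66 (adjusted p = 0.014, 0.020 and 0.029). Xaf1 was at 0 and 0 CPM and 2.8 and 1.35 CPM, at least 2.25-fold higher at E18.5, with 3 reads over the pair of pools taken as the floor. Rtp4 (1.39) completes the 8 largest with Tapbp, Irf7, Ddx58, Xaf1, B2m, Tap1 and Oas1a. The others were Samd9l, Irgm1, Irf9, Ifit3, Dhx58, Tap2, Parp14 and Psmb10.

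The 8 members that were lower at E18.5 included 4 GTPase genes. Gbp2 was at 6.3 and 6.1 CPM at E16.5 and 0.25 and 0.7 CPM at E18.5, Gbp3 at 8.65 and 3.55 CPM and 0 and 0.9 CPM, and Gbp7 at 34.5 and 21.2 CPM and 9.7 and 9.45 CPM. Iigp1 was at 3.15 and 2.55 CPM and 0.25 and 0.9 CPM, and Isg15 at 3.95 and 1.55 CPM and 0.25 and 0 CPM. Most of the genes just listed rest on a handful of reads, and Gbp7 is the best covered among them. Gbp2 differed by -2.30 (SE 0.35, limma adjusted p = 0.0033), Gbp3 by -2.27 (SE 0.51, adjusted p = 0.013) and Gbp7 by -1.41 (SE 0.28, adjusted p = 0.0084). The values were -1.67 (adjusted p = 0.018) for Isg15 and -1.32 (adjusted p = 0.025) for Iigp1. Rsad2 (-1.07), Ifit2 (-0.65) and Trim25 (-0.64) were the other 3. Irf1 was at 131 and 70.2 CPM and 71.1 and 71.9 CPM and was not called (-0.42). Stat2 (0.63), Ifit1 (0.17), Igtp (-0.13) and Psmb9 (0.96) were not called either.

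Receptor genes were detected at every age. The type I receptor gene Ifnar1 was at 27.5 and 28.8 CPM at E16.5 HE, 61.9 and 54.4 CPM at E18.5, 60.3 and 69 CPM in duodenum and 57.9 and 64.6 CPM in ileum. Its partner Ifnar2 was at 30.6 and 12.7, 7.65 and 5.3, 8.95 and 15.5 and 11.7 and 9.65 CPM in the same groups. The type II receptor gene Ifngr2 was at 20.4 and 16.7, 99.2 and 101, 99.6 and 85.8 and 101 and 75.8 CPM. Ifnar1 and Ifngr2 were thus close to the adult level at E18.5, with differences of 1.02 (SE 0.15, limma adjusted p = 0.0030) and 2.38 (SE 0.16, adjusted p = 2.8e-04) from E16.5, while Ifnar2 was lower (-1.49, adjusted p = 0.031). Ifngr1 was at 63.5 and 67.1 CPM at E16.5 and 79.4 and 75.8 CPM at E18.5. The type III receptor gene Ifnlr1 was at 15.7 and 12.2 CPM and 16 and 16.3 CPM, and its partner Il10rb at 39.2 and 33.3 CPM and 47.1 and 47.1 CPM. None of these last 3 was called. Of 21 ligand genes only Ifnk was tested, at 2.4 and 0.55 CPM at E16.5 HE and 1.65 and 4.85 CPM at E18.5, and it was not called. Ifnk was at 3.6 and 2.7 CPM in duodenum and 4.9 and 5.05 CPM in ileum. No other ligand gene, Ifng among them, was above 0.55 CPM in any sorted library or above 0.15 CPM in any organoid library.

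Among the transducers and regulators, Tlr3, Ikbke, Ticam1, Mavs, Mb21d1, Socs1, Tyk2, Irf3 and Jak2 were higher at E18.5 and Socs3 was lower. Of 31 other interferon-induced genes tested, 12 were higher and 9 lower, the largest being Cxcl10, at 96.4 and 49 CPM and 0.7 and 2.85 CPM (-4.77, limma adjusted p = 9.1e-04). The 2 ages differed in cell types too. Leukocyte genes were lower at E18.5 in 10 of 11 tested (sums 257 and 202 CPM against 81.0 and 96.3 CPM, with Lcp1 the most abundant). Without Lyz2 and Lcp1 these sums were 131 and 75.5 CPM against 20.0 and 16.1 CPM. Mesenchyme genes were lower in 11 of 11 (2036 and 1083 CPM against 108 and 98.4 CPM, led by Col3a1 at E16.5), endothelium genes in 5 of 5 and red blood cell genes in 4 of 5. Of the lymphocyte genes Gzma and Gzmb were lower. Their part in the result was not tested.

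Duodenum and ileum of the same adult mice were compared to ask whether the members follow the length of the gut. The ileum carries far more bacteria, and the duodenum is the main site of digestion of food leaving the stomach. Each mouse gave both regions, so the difference was also fitted with the mouse as a block. Of 49 members, 14 were called, 3 higher and 11 lower in the ileum, and 6.88% of all genes tested were called. With the mouse as a block 21 were called, 3 higher and 18 lower, against 11.1% of all genes. Without the filter limma called 0 members, against 0.698% of all genes called. In that fit 18 members had an unadjusted p under 0.05. The member median was -0.67 against 0.03 over all genes. The 11 members called lower were lower in the ileum of both mice, and by more in mouse 2, as for Oas2 (-3.12 and -4.23) and Irf7 (-1.47 and -2.78). The calls depended on single libraries. Without the duodenum of mouse 2 only Oas2 was called (0.365% of all genes), 4 were called without ileum 1 (3.29%) or without ileum 2 (2.64%), and 18 without the duodenum of mouse 1 (2.64%). Within mouse 1, 27 members were higher and 22 lower in the ileum, and within mouse 2, 4 were higher and 45 lower.

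Oas2 was at 151 and 404 CPM in the duodenum of mice 1 and 2 and 16.6 and 20.7 CPM in their ileum. Irf7 was at 117 and 260.2 CPM and 41.6 and 36.9 CPM. Both mice had the lower value in the ileum for both genes. Oas2 differed by -3.67 (SE 0.41, limma adjusted p = 0.0055) and Irf7 by -2.13 (SE 0.34, adjusted p = 0.018). Isg15 was at 8.05 and 38.4 CPM and 2.95 and 1.65 CPM, Ifit1 at 16.3 and 81.3 CPM and 4.15 and 5.75 CPM, and Mx1, a GTPase that blocks influenza viruses, at 14.1 and 66.7 CPM and 3.9 and 4.6 CPM. All 3 were lower in the ileum of each mouse, and far more so in mouse 2. They differed by -2.55, -2.68 and -2.61 (adjusted p = 0.080, 0.071 and 0.068). Oas3 (-2.37), Oasl1 (-2.03) and Dhx58 (-1.82) complete the 8 largest, and Oasl2, Samd9l and Oas1a (-1.37, adjusted p = 0.099) were also lower. The block added Cmpk2, Ddx58, Ifi35, Rsad2, Stat2, Usp18 and Zbp1.

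The 3 members higher in the ileum were the GTPase genes Iigp1 and Gbp2 and the factor Irf8. Iigp1 was at 0.9 and 1.35 CPM in duodenum and 54.8 and 17.9 CPM in ileum, Gbp2 at 0.2 and 0.25 CPM and 6.85 and 3 CPM, and Irf8 at 36.4 and 31 CPM and 86.9 and 69.2 CPM. Each was higher in the ileum of both mice, and Iigp1 was close to undetected in the duodenum. The differences were 3.94 (SE 0.49, limma adjusted p = 0.0072), 2.19 (SE 0.39, adjusted p = 0.027) and 1.18 (SE 0.19, adjusted p = 0.018). Igtp was at 32.5 and 80 CPM and 132 and 55.7 CPM, which was higher in the ileum of mouse 1 and lower in that of mouse 2. Tap1, Psmb9, B2m and Irf1 were not called (0.42, 0.50, 0.27 and 0.53).

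**Figure D2:**
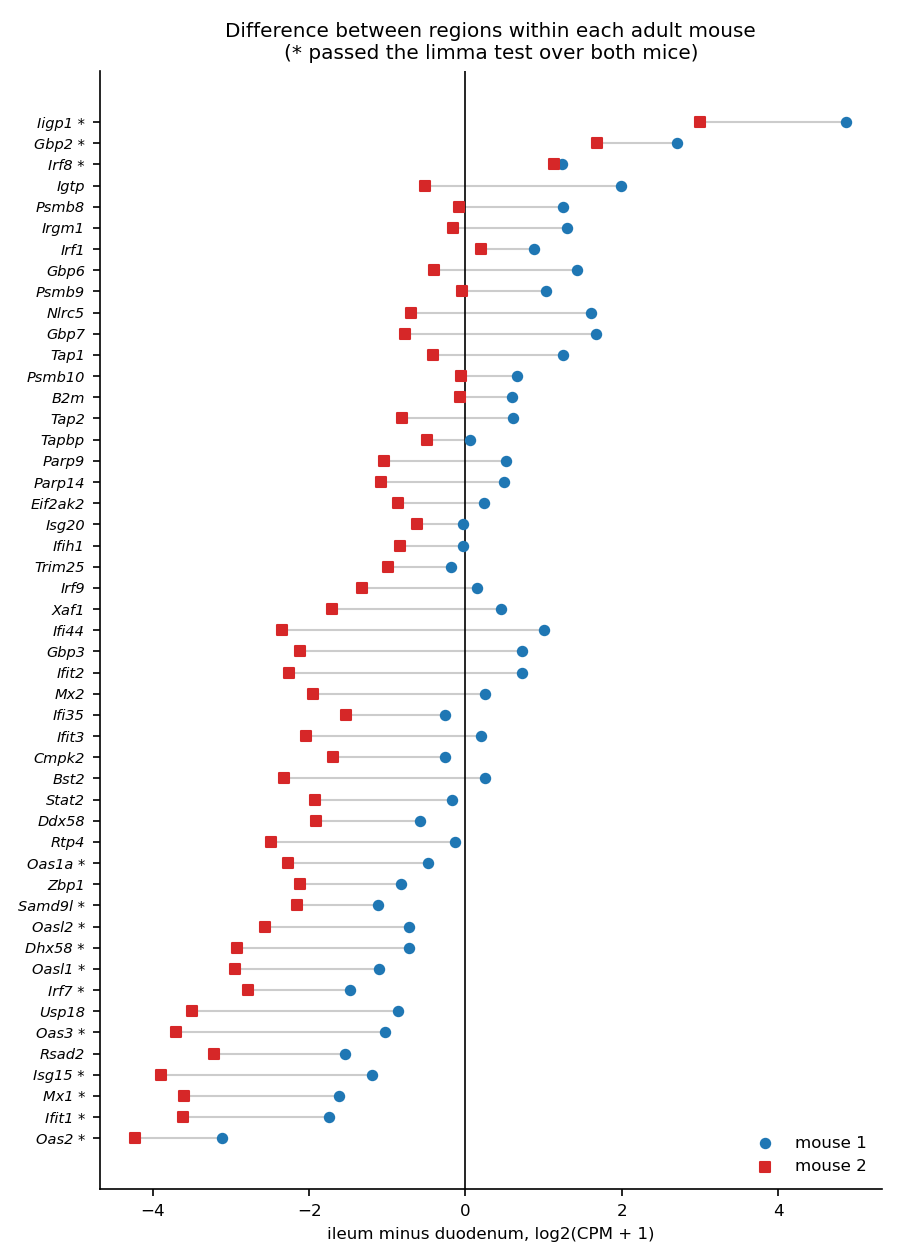
Ileum minus duodenum in log2(CPM + 1) for each member, with 1 point for mouse 1 and 1 for mouse 2, and a star at members called by limma. In 22 members both mice are below 0, in 4 both are above, and in 23 the mice differ in direction or are at 0.

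Of the 6 receptor genes none was called between regions. Of 16 transducers and regulators, Tmem173 (1.17, limma adjusted p = 0.033) and Ikbke (0.97, adjusted p = 0.096) were higher in the ileum. Of 40 other interferon-induced genes tested, Cxcl9 was higher and Apol9a, Sp100, Oas1b, Ddx60, Apol9b and Ifi27 were lower. Enterocyte genes were lower in the ileum in 7 of 7, with sums of 436 and 627 CPM in duodenum and 118 and 119 CPM in ileum, and Fabp1 or Fabp2 the most abundant. Of 11 leukocyte genes tested Itgam was higher and Ptprc lower, at 56.9 and 71.4 CPM in duodenum and 12.2 and 27.1 CPM in ileum. Krt18, Krt8, Tie1 and Tek were lower. Their part in the result was not tested.

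At E16.5 KO and HE pools were compared to ask whether loss of LGR5 in the fetus alters the members. LGR5 binds Rspondins and tunes the response to Wnt in cells of the forming crypts. KO 1 reads as male and the other pools hold female cells. Of 37 members tested 0 were called by limma, 6 had an unadjusted p under 0.05, and edgeR called 0 of 24. Over all genes 0.527% were called. A block for litter gave 3 members, all lower in KO, against 4.80% of all genes. The member median was -0.15 against 0.08. Each leave-out of a single pool also gave 0.

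Irf1 was at 131 and 70.2 CPM in HE and 50.2 and 70.3 CPM in KO. Gbp2 was at 6.3 and 6.1 CPM in HE and 0 and 2.8 CPM in KO, and Gbp7 at 34.5 and 21.2 CPM and 13.8 and 15.5 CPM. HE 1 had the highest value of each gene, and the Irf1 values of HE 2 and KO 2 were nearly equal. These are the 3 called with the block, with differences of -0.68, -1.88 and -0.85 (limma adjusted p = 0.010, 0.030 and 0.091 with the block, and 0.31, 0.24 and 0.26 without it). Within the litters Irf1 differed by -1.37 and 0.00, Gbp2 by -2.87 and -0.90 and Gbp7 by -1.26 and -0.43. With so few pools the block fit takes its spread mostly from other genes. Its p-values therefore do not measure how far a gene varied between the litters. B2m was at 102 and 109.5 CPM and 77 and 84.2 CPM, and Ifit1 at 8.65 and 9.6 CPM and 2.3 and 4.4 CPM. Both were lower in each KO pool without passing the test (-0.39, adjusted p = 0.31, and -1.26, adjusted p = 0.26). Stat2, Irf7, Ddx58, Tap1 and Psmb9 were not called (-0.54, 0.31, 0.63, 0.41 and -0.08).

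Of the other interferon-induced genes only Cxcl10 was called, at 96.4 and 49 CPM in HE and 13.1 and 19.1 CPM in KO (-2.05, SE 0.31, limma adjusted p = 0.066). Receptor and transducer genes gave 0 calls by limma. Other cell types differed between the pools. Mesenchyme genes summed to 2036 and 1083 CPM in HE and 229 and 628 CPM in KO, led by Col3a1, which was called lower. Leukocyte genes summed to 257 and 202 CPM in HE and 132 and 171 CPM in KO, led by Lcp1, and Cybb was called lower. Without Lyz2 and Lcp1 the leukocyte sums were 131 and 75.5 CPM in HE and 23.9 and 38.7 CPM in KO. Red blood cell genes were lower in 3 of 5 and enterocyte genes in 5 of 7. Their part in the result was not tested.

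In the adult Cre line, libraries labelled cKO and HE were compared to ask whether losing LGR5 for 48 hours in adult cells alters the members. Of 49 members 0 were called by limma and 3 had an unadjusted p under 0.05. Over all genes 0.0504% were called. The member median was -0.31 against 0.09 over all genes, and TMM scaling moved the median of all genes by -0.13. In sum 42 members were below 0, and for 14 members labelled HE 2 held the highest value of all sorted libraries. Without labelled HE 1 the HE arm was labelled HE 2 alone, and Irf7 differed by -1.72. With the genotypes of the supplementary table a single member was called, Gbp2, at 1.57 (limma adjusted p = 0.038), against 3.92% of all genes.

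Tap1 was at 243 and 219 CPM in the libraries labelled HE and 151, 152 and 177 CPM in those labelled cKO, and Psmb9 at 129.6 and 124 CPM and 104, 108 and 94.1 CPM. Both genes were lower in each library labelled cKO, by limma log2 differences of -0.53 and -0.31 (adjusted p = 0.86 for both). Irf7 was at 63.2 and 228 CPM and 65.2, 73.3 and 66.6 CPM, Isg15 at 5.65 and 44.8 CPM and 6.8, 8.05 and 10.3 CPM, and Ifit1 at 5.65 and 28.9 CPM and 7.65, 4.4 and 15.2 CPM. In each of these 3 genes labelled HE 2 was the highest of the 5 libraries. B2m was at 507 and 687 CPM and 469, 511 and 416 CPM, and Stat2 at 64.5 and 146 CPM and 75.4, 56.5 and 111 CPM. Irf1, Oas1a, Ddx58, Igtp and Iigp1 overlapped between the labels, with log2 differences of 0.28, -0.36, -0.14, -0.24 and -0.28. None of the receptor, transducer and other interferon-induced genes was called by limma. Leukocyte genes summed to 117 and 129 CPM in labelled HE and 116, 130 and 138 CPM in labelled cKO.

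The organoids are cultures of fetal gut epithelium, so they show the members without most of the tissue around the cells. Per kilobase, B2m led at 157 CPM per kb (47.3% of the member sum), followed by Tapbp at 28.9 and Trim25 at 26.0 CPM per kb. Gbp2, Gbp3, Gbp6 and Iigp1 were at or near 0. Culture KO 7 stood apart: it had the highest culture mean for 38 of the 49 members, and its library with Rspo2 at 5 ng/ml was the highest of all 30 for 28 members. Oasl2 was at 6.8 and 0.2 CPM in KO 7 and KO 2 with Rspo1 at 100 ng/ml and 15.2 and 1.45 CPM with Rspo2 at 5 ng/ml. KO 7 did not lead in each condition, and at 5 ng/ml Oasl2 was at 0.65 and 0.8 CPM in KO 7 and KO 2 with Rspo1 and 1.5 and 0.6 CPM with Rspo3, where WT 30 was at 2.3 CPM. Leukocyte genes summed to between 50.9 and 194 CPM, with Lcp1 most of it.

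**Figure D3:**
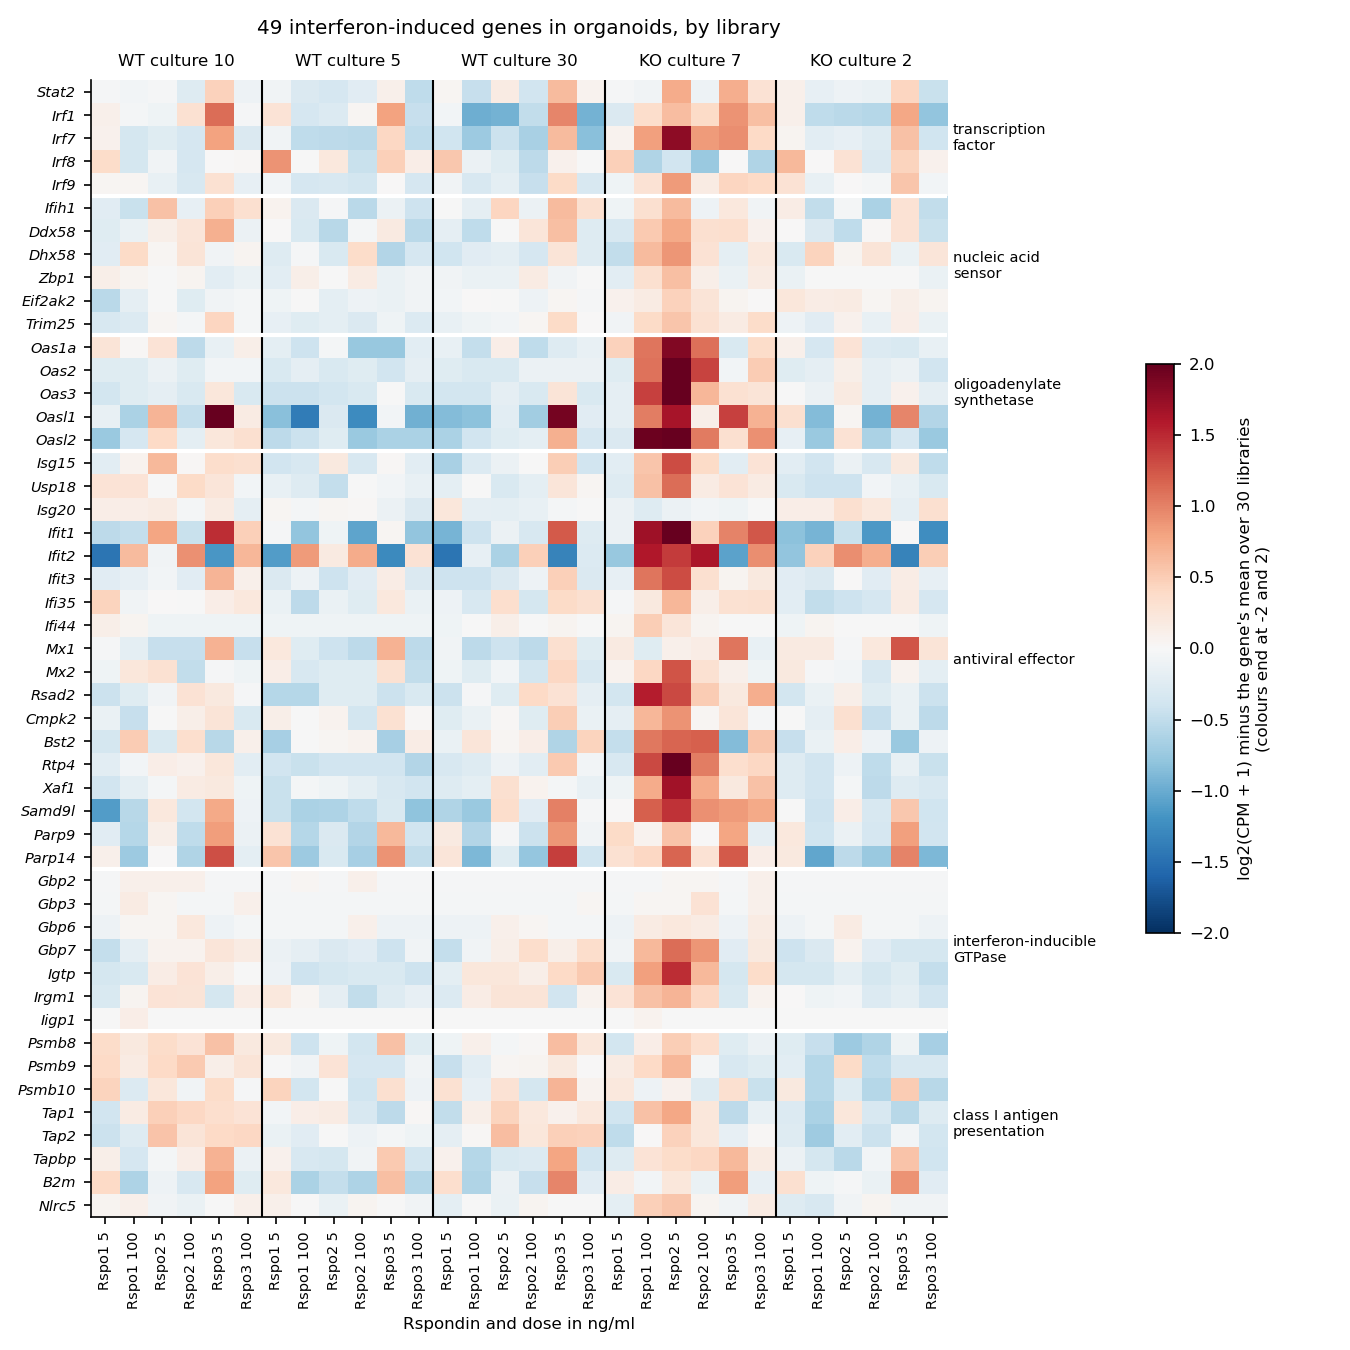
Heat map of the 49 members in the 30 organoid libraries, as log2(CPM + 1) minus the mean of the gene, by culture, ligand and dose, with colours ending at -2 and 2. The column of KO 7 with Rspo2 at 5 ng/ml holds the highest value of 28 members.

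Doses of 100 and 5 ng/ml were compared within each ligand and genotype, to ask whether members follow Rspondin strength. Rspondins hold Wnt receptors on the cell surface, so a low dose lets cells leave the stem cell state and differentiate. Every culture received all conditions, and the culture was also fitted as a block. Over 6 contrasts and 42 members, 38 of 252 tests were called, 8 higher and 30 lower at 100 ng/ml. In WT, 8 were called with Rspo1 (53.4% of all genes), 3 with Rspo2 (33.4%) and 14 with Rspo3 (51.4%). In KO, 4 were called with Rspo1 (29.8%), 0 with Rspo2 by limma (0.115% of all genes, 4 members at an unadjusted p under 0.05) and 9 with Rspo3 (44.5%). With the culture as a block 62 tests were called, 12 higher and 50 lower, against 45.58% of all gene tests. With TMM scaling, which moved the median of all genes by -0.19 to -0.27 in 5 of the contrasts and by -0.07 in KO with Rspo2, 55 were called, 5 higher and 50 lower, against 32.0% of all gene tests.

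The dose counts depend on single cultures. They were 24 without WT 10, 24 without WT 30, 28 without WT 5, 49 without KO 7 and 58 without KO 2, against 29.2%, 27.3%, 29.1%, 28.9% and 32.8% of all gene tests. With Rspo2 in WT 0 members were called by limma when any of the WT cultures was left out. In KO with Rspo2, leaving out KO 2, where Lgr5 was higher in the library labelled 5 ng/ml, gave 1. In KO with Rspo1, leaving out KO 7 ended all 4 calls (Ifit2, Dhx58, Irf8 and Psmb10) and gave 1 other, Parp14. Leaving out KO 2 ended the call of Psmb10 and added calls of other members, with KO 7 as the only KO culture left. The KO cultures went different ways with Rspo1. At 100 minus 5 ng/ml, 41 members were above 0 and 7 below in KO 7 (median 0.54). In KO 2, 9 were above 0 and 34 below (median -0.13). In WT, Mx1, Parp14 and Tapbp with Rspo1 and Bst2, Irf7, Irf9 and Stat2 with Rspo3 were not called when any WT culture was left out. Ddx58 and Oasl1 with Rspo3 were not called without WT 10 or without WT 30, and Psmb10 with Rspo3 was not called without WT 30. In KO with Rspo3, Bst2 was called neither without KO 7 nor when any WT culture was left out, Stat2 neither without KO 2 nor without WT 10, and Tapbp was not called without KO 2. With Rspo3 the summed level of the members was higher at the low dose in each culture, for example 1269 against 795 CPM in WT 10 and 1158 against 668 CPM in KO 2.

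Ifit2, a partner of Ifit1, was the member called higher at 100 ng/ml in most contrasts. In WT cultures 10, 5 and 30 it was at 3.7, 4.45 and 1.7 CPM at 100 ng/ml of Rspo1 and 0.1, 0.4 and 0.1 CPM at 5 ng/ml, and with Rspo3 at 3.8, 2.7 and 1.5 CPM and 0.35, 0.25 and 0.2 CPM. In KO cultures 7 and 2 it was at 8.2 and 3.15 CPM and 0.8 and 0.75 CPM with Rspo1. Every culture had more Ifit2 at the high dose of these ligands. The differences were 1.78 (SE 0.31, limma adjusted p = 5.6e-05) with Rspo1 and 1.48 (adjusted p = 3.3e-04) with Rspo3 in WT. In KO they were 1.80 (adjusted p = 0.0013) and 1.91 (adjusted p = 2.7e-04). With Rspo2 Ifit2 was at 4.7, 4.05 and 3.2 CPM and 1.9, 2.45 and 0.95 CPM in WT, and its 0.88 (adjusted p = 0.032) was not called with TMM scaling. Bst2, which tethers virus particles, was higher with Rspo3 by 0.84 in WT and 1.03 in KO, and neither was called with TMM. Dhx58 was higher with Rspo1 in KO (0.94). Without KO 7 neither Ifit2 nor Dhx58 was called with Rspo1 in KO.

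B2m was at 83, 82 and 83.9 CPM at 100 ng/ml of Rspo1 and 169, 148 and 162 CPM at 5 ng/ml in WT, and at 108, 85.1 and 109 CPM and 223, 193 and 252 CPM with Rspo3. In KO with Rspo3 it was at 113 and 108 CPM and 229 and 239 CPM. Doses did not overlap in any of these 3 contrasts. B2m was lower at the high dose, with differences of -0.93 (SE 0.12, limma adjusted p = 1.4e-06), -1.14 (SE 0.12, adjusted p = 5.0e-08) and -1.07 (SE 0.14, adjusted p = 3.2e-06). With Rspo2 in WT it was at 102, 82.7 and 92.5 CPM and 118, 91.3 and 118 CPM and was not called without a block (-0.23, adjusted p = 0.13). It was lower at the high dose within each of the 3 cultures, and it was called with the culture as a block (adjusted p = 0.027) and with TMM scaling. The dose effects of Rspo2 and Rspo1 on B2m in WT differed by 0.70 (adjusted p = 0.018), a test chosen after seeing the data.

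Parp14, a regulator of interferon transcription, was lower at the high dose in the same 3 contrasts as B2m (-1.08 and -1.55 in WT), as were Mx1 (-0.37, -0.98 and -1.11) and Tapbp (-0.50, -0.96 and -0.73). Parp9 was lower in these and with Rspo2 in WT, and Psmb10 in 5 of the 6 contrasts. Irf8 was lower with Rspo1 in WT (-0.76) and KO (-0.85). Irf1 was at 30.5, 22.1 and 15.5 CPM at 100 ng/ml and 68.5, 55 and 61.7 CPM at 5 ng/ml of Rspo3 in WT. The low dose had more Irf1 in all 3 cultures, a difference of -1.45 (SE 0.36, limma adjusted p = 0.0020). In the same contrast Irf7 (-1.16), Oasl1 (-1.79), Ddx58 (-0.80), Stat2 (-0.58) and Irf9 (-0.51) were also lower. Stat2 was lower in KO with Rspo3 as well (-0.65). Dose effects that were called in WT and not in KO, or the reverse, are not shown to differ. The test of KO minus WT gave 0 of 42 members for each ligand by limma. At an unadjusted p under 0.05 there were 2 members for Rspo1, 0 for Rspo2 and 0 for Rspo3. Over all genes 0%, 0.439% and 0% were called, in the same order.

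**Figure D4:**
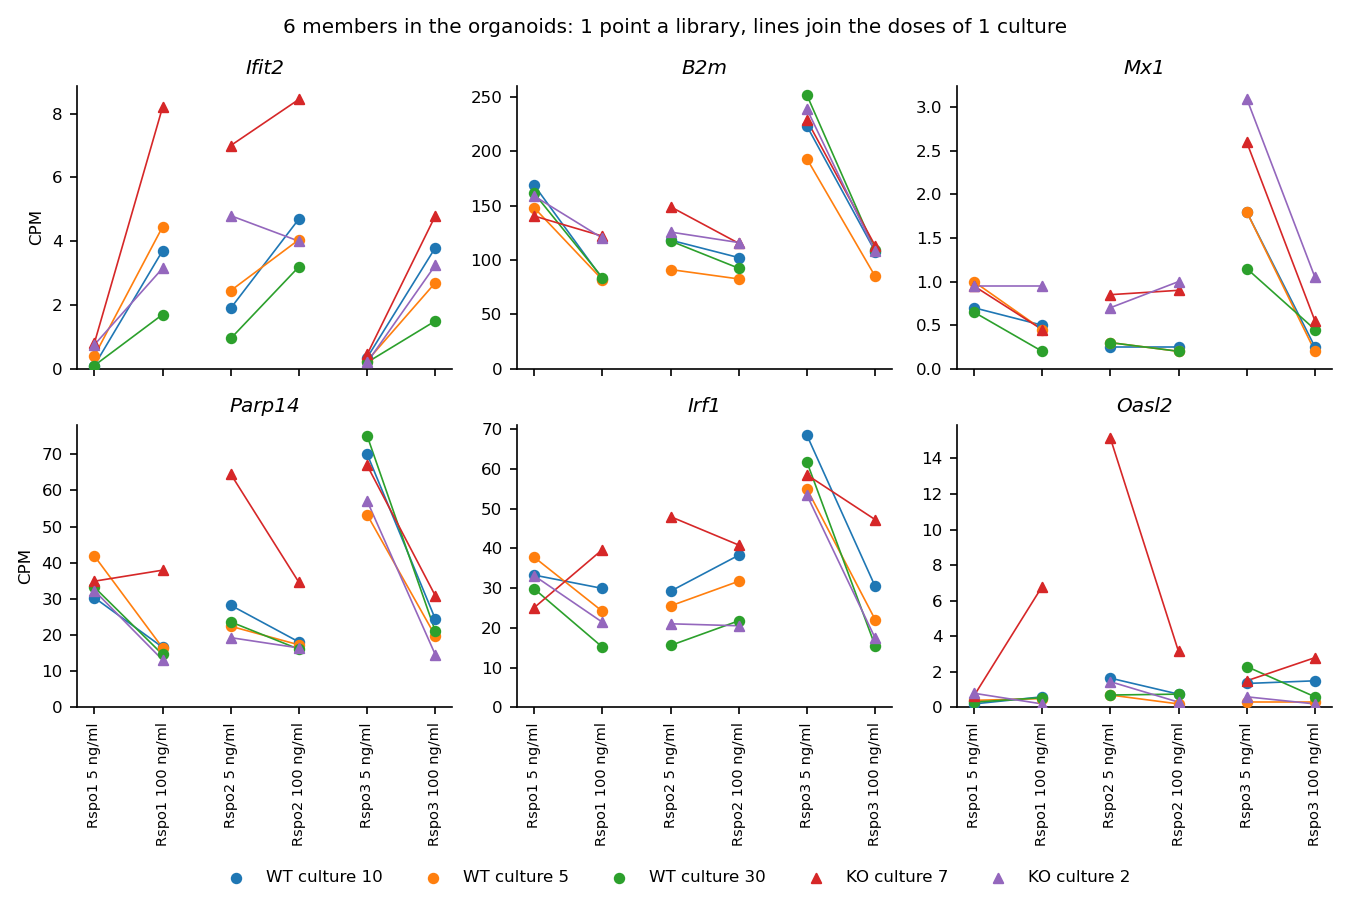
CPM of Ifit2, B2m, Mx1, Parp14, Irf1 and Oasl2 by ligand and dose in each culture, with lines joining the doses of a culture. Ifit2 is higher at 100 ng/ml of Rspo1 and Rspo3 in all 5 cultures, B2m is lower at 100 ng/ml of Rspo3 in all 5, and the highest Oasl2 value is that of KO 7 with Rspo2 at 5 ng/ml.

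Other genes moved with dose. Stem cell genes were higher at 100 ng/ml in 7 of 7 in each contrast except Rspo2 in KO, where 0 were called, Paneth cell genes in 5 or 6 of 6, and enterocyte genes were lower in 3 to 5 of 7. Of the receptors, Il10rb was lower at 100 ng/ml in 5 contrasts. With Rspo3 in WT, Ifnlr1 (-0.80, limma adjusted p = 0.0011), Ifnar1 (-0.48) and Ifnar2 (-0.53) were lower, and in KO Ifnar1 was lower too (-0.30). Ifngr2 was lower with Rspo1 (-0.35) and Ifngr1 with Rspo2 (-0.42) in WT. Over the 30 libraries Ifnlr1 ran from 18.9 to 56.1 CPM with a median of 31.1, and Ifngr1 from 149.8 to 299.9 CPM with a median of 198. The ligand gene Ifnk, from 1.40 to 4.80 CPM, was higher with Rspo2 in WT (0.56). The DNA sensor gene Mb21d1 (cGAS) and Tmem173 were higher and Mavs, Ticam1, Irf2 and Jak2 lower in several contrasts. Of other interferon-induced genes Ly6e, Parp11, Ifitm2 and Herc6 were higher and Tdrd7 and Helz2 lower. Whether the members follow the differentiation of the cells or a signal of interferon was not tested.

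Rspo2 and Rspo3 were compared with Rspo1 at the same dose, to ask whether the ligands differ for the members. The comparisons share the Rspo1 libraries, so they are not independent of each other or of the dose contrasts. Over 8 contrasts 18 of 336 tests were called, 15 higher and 3 lower than with Rspo1, all at 5 ng/ml. At 100 ng/ml limma called 0 members in each contrast, against 0.204% of all genes for Rspo2 in WT, 0.00523% for Rspo3 in WT, 0.0105% for Rspo2 in KO and 0% for Rspo3 in KO, and only Rspo3 in WT had members at an unadjusted p under 0.05, which were 2. At 5 ng/ml 5 were called for Rspo2 in WT (22.8% of all genes), 5 for Rspo3 in WT (16.4%), 5 for Rspo2 in KO (17.9%) and 3 for Rspo3 in KO (16.2%). With the culture as a block 51 tests were called, 46 higher and 5 lower, against 17.48% of all gene tests. At 100 ng/ml the block called B2m, higher with Rspo3 in WT (0.27, adjusted p = 0.037), against 15.2% of all genes, and 0 members in the other 3 contrasts by limma, which had 3, 2 and 2 members at an unadjusted p under 0.05. TMM scaling gave 16, 12 higher and 4 lower, against 8.01% of all gene tests, and moved the median of all genes by 0.15 for Rspo3 at 100 ng/ml in WT and by -0.14 for Rspo2 at 5 ng/ml in KO. The count was 6 without WT 10, 10 without WT 5, 8 without WT 30, 26 without KO 7 and 52 without KO 2, against 4.91%, 6.37%, 5.93%, 6.74% and 8.01% of all gene tests.

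At 5 ng/ml in WT, Ifit2 was at 0.1, 0.4 and 0.1 CPM with Rspo1 and 1.9, 2.45 and 0.95 CPM with Rspo2, higher in each culture by a limma difference of 1.18 (adjusted p = 0.0090). B2m was lower with Rspo2 (-0.55, adjusted p = 0.0021) and higher with Rspo3 (0.47, adjusted p = 0.0078), and Mx1 did likewise (-0.47 and 0.53). Tap2 was higher (0.65) and Irf8 lower (-0.64) with Rspo2. Oasl1 (2.07), Parp9 (0.71) and Tapbp (0.58) were higher with Rspo3. None of the 5 calls for Rspo3 in WT was made without WT 10, only Mx1 was kept without WT 30, and B2m, Oasl1 and Parp9 were kept without WT 5. Of the 5 for Rspo2 in WT, 1 (B2m) was kept without WT 10, 2 without WT 5 and 3 without WT 30. In KO, Ifit2 was at 0.8 and 0.75 CPM with Rspo1 and 7 and 4.8 CPM with Rspo2 in cultures 7 and 2. Ifit2 (1.94), Oas2 (1.30), Oas3 (1.20), Bst2 (1.12) and Dhx58 (0.88) were called with Rspo2. None of these 5 was called without KO 7, and only Ifit2 of them was called with TMM scaling. Oas2, Oas3 and Bst2 were also not called when any WT culture was left out. The KO 2 library in this contrast is the library labelled 5 ng/ml with more Lgr5 than at 100 ng/ml. Mx1 (0.98), Tapbp (0.80) and B2m (0.64) were higher with Rspo3 in KO. B2m was called neither without KO 7 nor without KO 2, and Tapbp neither without WT 5 nor without WT 30. Among receptors, Ifngr1 was higher with Rspo2 (0.54), and Ifnar1 (0.39) and Ifnlr1 (0.58) were higher with Rspo3, all at 5 ng/ml in WT.

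KO and WT organoids were compared on the mean of each culture over its 6 libraries, since a culture is the unit that carries the genotype. Of 32 members tested 0 were called by limma, 6 had an unadjusted p under 0.05, and 0.169% of all genes were called. Mx1 had the lowest p, with a difference of 0.44 (unadjusted p = 0.0086, adjusted p = 0.32), and Irf9 (0.37), Ifit2 (0.59), Irf7 (0.62), Samd9l (0.65) and Eif2ak2 (0.25) were the others. Irf7 had culture means of 10.9, 8.98 and 8.58 CPM in WT 10, 5 and 30, and 21.2 and 10.6 CPM in KO 7 and 2. The high KO mean of Irf7 was thus mostly a high KO 7. In single conditions Mx1 (0.68) was called with Rspo2 at 100 ng/ml, and Oas3 (1.35) and Ifit2 (1.34) with Rspo2 at 5 ng/ml. That is 1 and 2 of 42 members (2.38% and 4.76%), against 1.20% and 4.54% of all genes. Stat2, Irf1, Ddx58, Psmb9, Tap1 and B2m were not called on culture means (0.17, 0.14, 0.11, -0.13, -0.18 and 0.22).

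Several limits hold for these data. Sorted groups hold 2 or 3 libraries, so a gene that was not called is not shown to be equal. E16.5 libraries are shallow, and 13 members had a mean under 1 CPM in HE. Sex coincides with the labelled genotype in the Cre line and with genotype in the organoids, and 2 of the 5 Cre genotypes are in doubt. The adult age difference holds 2 mice and the embryos differ in sex. Interferon protein, signalling and microbes were not measured, and RNA of a gene is not its protein. The members were chosen for type I, II and III interferon together, so they do not tell these apart.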

How the data were processed

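RNA was sequenced in paired ends from 15 libraries of sorted cells and 30 organoid libraries. The authors trimmed reads with Trimmomatic 0.36, aligned them to GRCm38.p4 with STAR 2.5.3a, counted them per gene with HTSeq 0.9.1 and deposited CPM (counts per M), with 52636 genes in each table. The deposited values are rounded to steps of 0.05 CPM. Depth was read back from that step and from the value of a single read, and was 1.28 to 9.98 M reads in sorted libraries and 18.1 to 33.1 M in organoids.

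Genes were kept when the number of libraries at or above 1 CPM reached the size of the smallest group, and they were tested with limma 3.58.1 (trended variances) on log2(CPM + 1) in R 4.3.3, with Benjamini-Hochberg adjustment over all genes tested. A gene was called in sorted cells at an adjusted p under 0.1 with a fold over 1.5, and in organoids at an adjusted p under 0.05. The organoids were fitted as 12 groups, and KO was compared with WT on culture means. At E16.5 whole reads recovered from CPM, which gave back 99.93 to 99.97% of the values, were also tested with edgeR 4.0.16. Summaries used Python 3.11.15 with pandas 2.3.3, numpy 2.4.6, scipy 1.17.1 and matplotlib 3.10.9, and the fit was tested on simulated data. Of the gene identifiers 99.6% were found in the reference.

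Members and gene lists were chosen with earlier results of these data known. Named are Stat2, Irf7, Irf1, Isg15, Ifit1, Oas1a, Ddx58, Igtp, Iigp1, Psmb9, Tap1 and B2m, the called members, with values for up to 8 per direction and the rest by role, the ligand and receptor genes, and called genes of the pathway lists. Beside them, lists of signal transducers, other interferon-induced genes, leukocytes, intraepithelial lymphocytes, mesenchyme, endothelium, epithelium, stem cells, enterocytes, Paneth cells, red blood cells and sex markers were read.

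Samples with the same number share a litter at E16.5, a mouse in the adult regions and a culture in organoids, so they are paired. Deviations from the group means correlated within pairs at -0.032 at E16.5, 0.26 in the regions, 0.47 in WT and 0.50 in KO organoids. Alternatives were a pseudocount of 0.1, no filter, TMM scaling, the block, leaving out each library or culture, the genotypes of the supplementary table and single regions or conditions. Differences between dose effects were added after seeing the data. The floor for a group at 0 was 3 reads over the group, which covers counting error only.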

Additional observations from a re-analysis of the deposited data

Results flagged for a closer look

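In the group of 4 adult HE libraries, 3 of the 49 members had 1 library far from the other libraries, with a gap over range above Dixon's limit for 4 samples. They were Irf9, low in the ileum of mouse 2, and Ifih1 and Tapbp, high in the duodenum of mouse 2. The limit is set for 4 independent libraries, and these are 2 regions of 2 mice. The members also moved together, with 48 of the 49 higher in the duodenum of mouse 2 than in that of mouse 1. How many members chance would put past the limit is therefore not known.

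In the organoids the dose effect on B2m differed between ligands in WT, by 0.70 on the log2 scale for Rspo2 minus Rspo1 (limma adjusted p = 0.018). B2m was lower at 100 ng/ml with Rspo1 and changed less with Rspo2. That was 1 of 42 members (2.38%), against 4.70% of all genes. With the culture as a block, 3 members differed between Rspo2 and Rspo1 in WT (Tapbp, Ifit2 and B2m), which is 7.14% against 15.7% of all genes, and 1 between Rspo3 and Rspo1 (Irf8), which is 2.38% against 4.17%. In KO 10 differed between Rspo2 and Rspo1 (Dhx58, Cmpk2, Rsad2, Oasl2, Oas3, Rtp4, Ifit1, Xaf1, Ifit2 and Ifit3), which is 23.8% against 15.4% of all genes, and 3 between Rspo3 and Rspo1 (Mx1, Tapbp and B2m), which is 7.14% against 3.95%. Without the block the other contrasts gave 0 calls by limma, against 0.460%, 2.22% and 0.0836% of all genes. They had 2, 7 and 4 members at an unadjusted p under 0.05. The 10 in KO include the library of KO 2 with Rspo2 at 5 ng/ml, where Lgr5 was higher than at 100 ng/ml, and the KO 7 library that was highest for 28 members. These contrasts were chosen after seeing the data.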

How the results depend on the processing

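Of the single gene values under alternatives, 949 kept direction and call, 267 kept direction without the call and 0 were reversed. The E16.5 count of members was 0 under every alternative except the litter block, with 3. For adult against E18.5 it was 12 to 39 and for E18.5 against E16.5 it was 2 to 27 when a library was left out. Where the group held 2 libraries, its arm then held 1 sample, assumed to vary like the others. Ileum against duodenum gave 0 without a filter, where far more genes are tested, and 1 to 18 when a library was left out. The Cre line gave 0 to 1 when a library was left out and 1 with the genotypes of the supplementary table. Its libraries share only a number between labels (deviations correlated at 0.29, others at -0.14), and the replicate block gave 0. Organoid dose gave 62 with the culture block and 24 to 58 when a culture was left out, ligand gave 51 and 6 to 52, and KO against WT gave 1 with Rspo2 at 100 ng/ml alone and 2 with Rspo2 at 5 ng/ml alone. Counts over all genes moved too. At E16.5 91 genes were called, against 2 with a pseudocount of 0.1, 0 without a filter, 243 with TMM, 830 with the block and 354 with edgeR. Ileum against duodenum went from 1280 to 223 without a filter and 2065 with the block. The Cre line went from 10 to 18 without a filter, 16 with the block and 779 with the genotypes of the supplementary table. Dose went from 40681 to 52321 and ligand from 14068 to 26746 with the block. The causes were not tested. A single read was worth 0.784 CPM in the shallowest library.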
